A study of Mus musculus with 2 samples.

Results

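The regions described here are stretches of DNA inside genes that were listed in macrophages given interleukin-4 (IL-4) and had no overlapping region in untreated macrophages. They were taken from lists of regions enriched for the phosphatase PHLPP1 and were chosen by presence in 1 list and absence from the other, so their fold and number are described and not tested. A region was kept where it lay on 1 of the 19 autosomes, shared no base with any region of the untreated list, overlapped the body of a protein-coding gene (RefSeq, build mm10) and lay more than 1 kb from every end of every protein-coding gene. This rule chose 54668 of the 225427 autosomal regions of the IL-4 list, and the IL-4 list held 226476 regions in all. Within gene interiors they made up 57.3% of the 95347 regions of the IL-4 list. That share comes from the rule itself and is given as a description. The rule applied the other way round gave 22725 regions of the untreated list, 35.5% of the 63968 untreated regions inside genes. The 3 classes are called IL-4-alone, shared and untreated-alone below, and shared regions are counted in the IL-4 list.

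PHLPP1 is a phosphatase with a PH domain and leucine-rich repeats that removes phosphate from the kinase AKT and from several protein kinase C enzymes. It is known mainly as a brake on growth and survival signals at the membrane and in the cytosol, and part of it is found in the nucleus. IL-4 acts through its receptor, the JAK kinases and the transcription factor STAT6, and moves macrophages into a state known as alternative activation. The interior of a gene holds exons and introns, and introns of mammalian genes carry many enhancers and some start sites of shorter transcripts.

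The study measured 2 libraries by CUT&Tag, a method in which an antibody in permeabilised cells steers a transposase that cuts and tags the DNA nearby. Both were made with a ProteinTech antibody to PHLPP1 from primary alveolar macrophages, which live in the air spaces of the lung and were washed out of wild-type mice. The first library came from untreated cells and the second from cells that received 20 ng/ml of IL-4 during 4 h. Each group held 1 library, so no difference between the groups had a replicate check and no test between them was possible. The sources used here do not say how old the mice were or whether cells of several mice were pooled.

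The lists held 165968 regions for the untreated library and 226476 for the IL-4 library. Depth in reads was not stated, but the background recovered from the authors' values was 13.9 fragments without IL-4 and 15.9 with it. The labelled cell type was checked at gene ends, where a gene counts as marked when a region lies within 1 kb of either end. Over all 20665 autosomal protein-coding genes, 73.3% were marked with IL-4 and 60.1% without. Of 26 genes of alveolar macrophage identity, 25 were marked with IL-4 and 20 without. Of 25 genes of macrophages in general, 23 and 16 were marked. Markers of other cells were marked as well, with 17 and 10 of 24 for lymphocytes, 19 and 12 of 24 for lung epithelium, 13 and 8 of 24 for fibroblasts and endothelium, and 11 and 13 of 24 for neurons. The part of other cell types in the results was not tested.

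A small set of IL-4-alone regions sat on a start site inside a gene, and some of these sequences are printed because they are the regulatory sequences that the regions cover. RefSeq (GRCm38.p6) placed 3465 start sites of protein-coding genes more than 1 kb inside the ends of a gene, each given as a window of 300 bases, from 250 before the start to 50 after it. An IL-4-alone region overlapped 334 of them, which is 9.64% (exact 95% interval 8.68 to 10.7). A shared region overlapped 1027 (29.6%), and an untreated-alone region 58 (1.67%). The 4 windows below were chosen after their values were seen. Tmem191c has the strongest region at such a start, Rfc1 and Ifit1bl1 hold several motif matches, and Il4 encodes the cytokine given to the cells. Each is printed 5′ to 3′ on the strand of the gene, in lower case, with matches to the motifs searched in capitals, on either strand.
Tmem191c, chr16:17276050-17276349, plus strand: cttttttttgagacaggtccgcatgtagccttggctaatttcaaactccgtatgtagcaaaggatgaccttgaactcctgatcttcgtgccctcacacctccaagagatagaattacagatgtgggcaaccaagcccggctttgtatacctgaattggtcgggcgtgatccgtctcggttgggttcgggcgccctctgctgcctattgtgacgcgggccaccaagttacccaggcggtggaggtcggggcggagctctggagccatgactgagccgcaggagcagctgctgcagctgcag
Rfc1, chr5:65335590-65335889, minus strand: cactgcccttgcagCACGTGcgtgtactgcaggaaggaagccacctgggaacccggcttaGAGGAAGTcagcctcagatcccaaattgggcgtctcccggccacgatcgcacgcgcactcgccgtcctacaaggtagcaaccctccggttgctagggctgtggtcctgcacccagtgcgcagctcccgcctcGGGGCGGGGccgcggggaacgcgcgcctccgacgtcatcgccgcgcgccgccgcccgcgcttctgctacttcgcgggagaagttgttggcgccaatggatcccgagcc
Il4, chr11:53617289-53617588, minus strand: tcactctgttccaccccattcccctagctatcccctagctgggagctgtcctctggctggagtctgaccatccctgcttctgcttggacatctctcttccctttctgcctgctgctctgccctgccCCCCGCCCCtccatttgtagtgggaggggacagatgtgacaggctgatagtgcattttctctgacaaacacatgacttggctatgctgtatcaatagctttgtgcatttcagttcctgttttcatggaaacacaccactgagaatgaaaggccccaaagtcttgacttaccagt
Ifit1bl1, chr19:34601919-34602218, minus strand: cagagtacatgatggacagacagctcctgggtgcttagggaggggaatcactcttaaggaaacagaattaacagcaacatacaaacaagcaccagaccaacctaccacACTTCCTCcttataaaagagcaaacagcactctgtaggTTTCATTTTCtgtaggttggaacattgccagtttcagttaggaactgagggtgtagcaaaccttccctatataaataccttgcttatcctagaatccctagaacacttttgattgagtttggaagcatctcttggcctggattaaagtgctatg

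The region over the Tmem191c start, chr16:17276075-17276459, had a fold of 4.67 in the IL-4 list, and its window held none of the motifs searched. Fold is the authors' ratio of the signal at the highest point of a region, its summit, to the background of the same library. Rfc1 encodes the large subunit of replication factor C, which loads the sliding clamp onto DNA. The region at its inner start had a fold of 3.62, and the window held 1 match each to PU.1, the E-box and the GC box. Il4 encodes the cytokine itself. The region at its inner start, chr11:53617172-53617622, had a fold of 3.44, its window held a GC box, and the nearest region of the untreated list lay 10.3 kb away. Ifit1bl1 belongs to a family of genes known for induction by interferon. The region there had a fold of 3.32, and the window held matches to PU.1 and to the IRF motif. The nearest untreated region lay 1.95 kb or more from each of the 4 regions.

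The share of windows with a motif was close to that of start sites at large for most of the motifs searched. The PU.1 motif GAGGAAGT was found in 2.69% of the 334 windows with an IL-4-alone region and in 3.25% of all 31365 autosomal start windows. The AP-1 motif TGANTCA was found in 6.89% against 7.85%, the C/EBP motif TTGCNNAA in 11.7% against 10.9%, and the E-box CACGTG in 6.29% against 7.14%. The STAT6 motif was found in 5.69% against 6.97%, the IRF motif in 3.29% against 3.45%, and the CTCF motif in 2.99% against 2.47%. The 3465 inner starts of protein-coding genes, from which the 334 come, are the closer background. There PU.1 stood at 2.51%, AP-1 at 7.88%, C/EBP at 11.4% and the E-box at 6.06%. STAT6 stood at 7.04%, IRF at 2.89%, CTCF at 2.51% and the GC box at 12.2%. The nuclear receptor DR1 motif was in 0 of the 334 windows, with an exact 95% upper limit of 1.10%. It was in only 0.0383% of all start windows (12 of 31365), so the 0 says little about this motif. The GC box GGGGCGGGG was in 12.9% of these windows, 11.6% of all start windows and 20.4% of the 1027 windows with a shared region. The median GC content was 57.0% in windows with an IL-4-alone region, 60.0% with a shared region and 53.0% over all start windows. The medians of CG dinucleotides per window were 9, 18 and 7 in the same order. Over the 3465 inner starts the median GC content was 54.3% and the median of CG dinucleotides 8. Start sites under IL-4-alone regions thus lay between start sites at large and those under shared regions in both measures. Both strands were searched, matches of different motifs may overlap, and a match is a description of letters, not of binding.

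IL-4-alone regions also overlapped 26 of 919 autosomal miRNA hairpins, and 519 hairpins lay inside a protein-coding gene more than 1 kb from ends. A separate count of regions over miRNA bodies in the gene table gave 36 IL-4-alone regions, 0.0659% of them. The shares were alike for shared (0.0688%) and untreated-alone regions (0.0704%). The mature sequences of 4 of the 26 hairpin genes and of a duplicated pair are printed because their regions were among the strongest at a hairpin or lay in receptor genes of macrophages. The seed, bases 2 to 8, is in capitals.
mmu-miR-6541: cACAGGCAaggacuucucaag
mmu-miR-6993-5p: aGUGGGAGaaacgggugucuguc
mmu-miR-6993-3p: cUUGCGUUuguuuccucacag
mmu-miR-3075-3p: aUCCUUGGccuuccuaggugu
mmu-miR-378b: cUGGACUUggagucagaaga
mmu-miR-7676-5p: aGGGCAGUaugauggccucugau
mmu-miR-7676-3p: uCCGGUGCucacucugcccaca

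The region over Mir6541, chr14:62865308-62865741, lay in Wdfy2 and had a fold of 4.27. The region over Mir6993, chr19:10191217-10191692, lay in Fads1, a desaturase of polyunsaturated fatty acids, and had a fold of 3.32. Mir3075 in Zmiz1 had a fold of 2.55 and Mir378b in Msi2 a fold of 2.44. Mir7676-1 in Csf2rb2 and Mir7676-2 in Csf2rb give the same mature sequences. Their regions had folds of 2.08 and 2.04, close to the median of all IL-4-alone intragenic regions. Csf2rb encodes the common beta chain of the receptors for GM-CSF, IL-3 and IL-5, and Csf2rb2 is its neighbouring close copy, so reads may not separate the pair fully.

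Most IL-4-alone regions inside genes were weak. Their fold ranged from 1.29 to 5.83 with a median of 2.08 and quartiles at 1.90 and 2.31. The median −log10 q, the authors' significance of a region against its own background after correction for multiple tests, was 2.94. A −log10 q of at least 5, called strong below, was reached by 9062 of them, 16.6% (16.3 to 16.9). Of the 40679 shared regions 46.9% were strong and their median fold was 2.33. Of the untreated-alone regions 2.54% were strong, at a median fold of 2.06. The limit did not stand for the same fold in both libraries. Inside Phlpp1, for example, a region at a fold of 2.08 had a −log10 q of 2.62 with IL-4 and 2.01 without. A fold of 3 or more was reached by 3.21% of IL-4-alone and 0.211% of untreated-alone regions. Median widths were 286 bp for IL-4-alone, 398 bp for shared and 253 bp for untreated-alone regions. IL-4-alone regions outside genes, 60167 in number, had the same median fold of 2.08 and 14.7% were strong. Those within 1 kb of a gene end, 7855 in number, had a median of 2.13 and 24.2% were strong. The strong share of the intragenic regions thus lay between those of the IL-4-alone regions outside genes and at gene ends. Absence from the untreated list means only that no region was listed there, since the signal of the untreated library below the caller's limit was not analysed here.

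The share of intragenic IL-4 regions with no untreated overlap fell steadily with fold. It was 76.4% below a fold of 1.75, 64.7% between 2 and 2.25, 40.9% between 2.5 and 3, and 5.69% between 4 and 5. At a fold of 5 or more, 7 of 1536 regions were in the IL-4 list alone, 0.456% (0.183 to 0.937). The same shares for the untreated list were 56.4%, 42.1%, 13.8% and 0.122%, and 0 of 469 regions at a fold of 5 or more. In each fold class the IL-4 list held the larger share of regions with no partner. The pileup of IL-4-alone regions had a median of 37 fragments where the lowest listed at the constant background was 26. Scaled to the background of the untreated library, the median was 32.4, and the lowest pileup listed there was 23. A scaled pileup of at least 34.5 was reached by 37.7% of the regions and one of at least 46 by 6.08%.

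**Figure D1:**
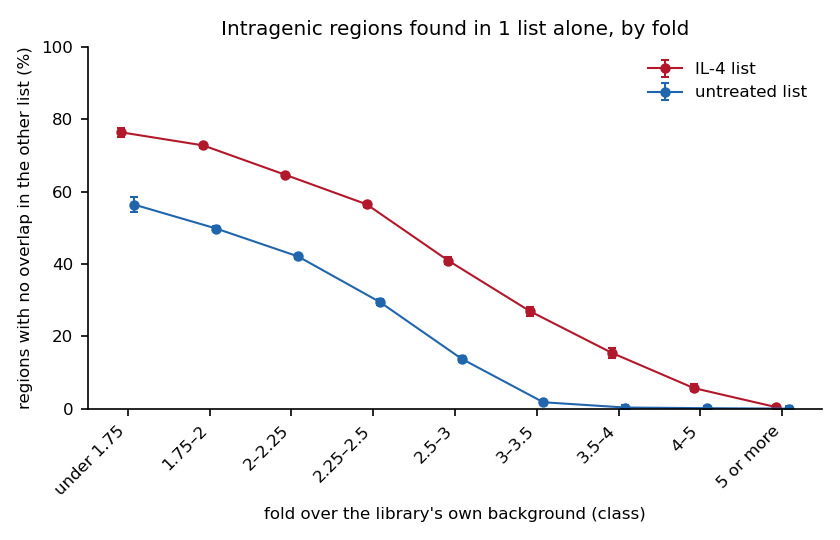
Percent of intragenic autosomal regions with no overlap in the other list (y axis) by class of fold over the background of the library (x axis), with the IL-4 list in red and the untreated list in blue, 1 library each. Bars are exact 95% binomial intervals that cover counting error only. Both lines fall with fold, from 76.4% to 0.456% in the IL-4 list and from 56.4% to 0 in the untreated list.

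The limits of the rule cut through regions that look alike. IL-4-alone regions 1001 to 1100 bp from a gene end, just inside the rule, numbered 313 and had a median fold of 2.05. Those 901 to 1000 bp away, just outside it, numbered 393 with a median of 2.06. The 373 regions with an untreated region fewer than 50 bp away had a median fold of 2.02. The 693 that shared 1 to 50 bp with one, and so were left out, had a median of 1.99.

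IL-4-alone regions lay close to untreated regions and close to each other. The median distance to the nearest untreated region was 3.41 kb. An untreated region lay within 5 kb of 61.6% of them (61.2 to 62.0), within 1 kb of 19.2% and within 0.2 kb of 3.21%. Untreated-alone regions lay a median of 2.39 kb from the nearest IL-4 region, in the longer list, and 69.3% had one within 5 kb. The next IL-4-alone intragenic region was a median of 3.73 kb away. The same spacing was 5.16 kb between shared and 9.25 kb between untreated-alone regions, which were fewer. The nearest protein-coding gene end was a median of 21.9 kb away, against 24.3 kb for shared and 38.4 kb for untreated-alone regions. Untreated-alone regions thus lay farthest from gene ends.

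Within genes the regions were spread nearly evenly. Over genes whose strand is given, the rate was 6.49 per 100 kb from 1 to 5 kb after the gene start and 5.97 per 100 kb from 20 to 50 kb. At the far end it was 6.71 from 1 to 5 kb and 6.01 from 20 to 50 kb. Shared regions rose more towards the start, with 5.17 per 100 kb from 1 to 5 kb and 4.22 from 20 to 50 kb. Few IL-4-alone regions covered an annotated start of any gene, 490 or 0.896%, against 2.73% of shared regions. A lncRNA body covered 5.73% of them and 5.91% of shared regions. Whether a region lay in an exon, an intron or an untranslated stretch was not analysed here.

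Counted per gene, 10580 of 18328 autosomal protein-coding genes with any interior held at least 1 IL-4-alone region, 57.7% (57.0 to 58.4). A region inside overlapping genes counts once for each gene, which gives 55501 pairs of a region and a gene over 958 Mb of interior. The rate was 5.80 per 100 kb for IL-4-alone, 4.33 for shared and 2.41 for untreated-alone regions. Among the 8976 genes with 20 kb or more of interior, the median rates were 4.62, 3.29 and 0.557 per 100 kb. In these genes IL-4-alone regions outnumbered untreated-alone regions in 67.0%, and over all 18328 genes in 49.5%. The rule and the longer IL-4 list both enter these shares. The rate fell in the longest genes, from 6.41 per 100 kb at 100 to 200 kb of interior to 3.31 beyond 500 kb. Across the 8976 genes the rates of IL-4-alone and shared regions went together, with a Spearman correlation of 0.551. Genes share libraries and neighbourhoods and are not independent.

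The rate differed with the number of genes nearby. For genes of 20 kb or more with 1 to 4 protein-coding genes in the 1 Mb around them (itself included), IL-4-alone regions numbered 3.61 per 100 kb and untreated-alone regions 2.90. With 20 to 29 genes in that window, the rates were 7.79 and 1.56. Shared regions stayed between 4.44 and 5.01 from 5 genes upwards and were at 3.28 in the sparsest class. The ratio of IL-4-alone to untreated-alone regions rose from 1.24 in the sparsest class to 5.30 in the densest, 30 genes or more. Among genes with 50 to 100 kb of interior the same ratio went from 1.71 to 5.48. With the IL-4 list shortened to the length of the untreated list it went from 0.623 to 2.62, so the rise was still there while the excess in sparse neighbourhoods was not. With only regions of these 2 classes at a fold of 2.5 or more counted, the ratio went from 2.08 to 56.7, the last from 340 regions over 6. Overlap was still judged against the full lists there. Across genes, the Spearman correlation with the number of neighbours was 0.154 for IL-4-alone, 0.0038 for shared and -0.233 for untreated-alone regions. By chromosome, the rate was highest on 11 (7.42 per 100 kb), 7 (7.15) and 9 (6.99) and lowest on 3 (4.29), and the ratio to untreated-alone regions was highest on 19 (6.84). The recovered background, which grows with depth, was also higher in the IL-4 library (15.9 against 13.9 fragments), and its part in the pattern was not tested.

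**Figure D2:**
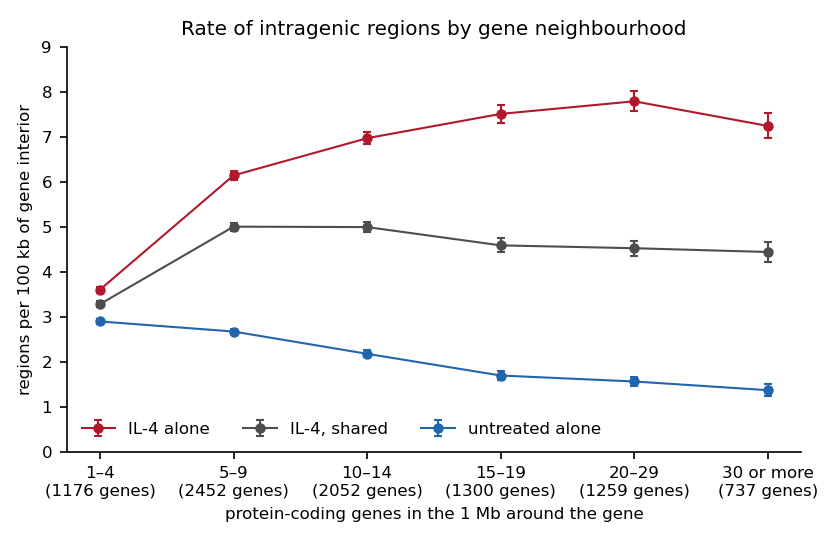
Regions per 100 kb of gene interior (y axis) for genes of 20 kb or more, by the number of protein-coding genes in the 1 Mb around each gene (x axis, with the number of genes in each class). IL-4-alone regions (red) rise from 3.61 to 7.79 and end at 7.24, shared regions (grey) stay between 4.44 and 5.01 after the first class, and untreated-alone regions (blue) fall from 2.90 to 1.37. Bars are exact 95% Poisson intervals that cover counting error only.

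The genes with the most IL-4-alone regions for their length were of mixed function. Among genes with 20 kb or more of interior and at least 5 such regions, Gbx1, a homeobox transcription factor gene of neural development, came first. It held 9 in 20.4 kb, a rate of 44.1 per 100 kb (exact 95% Poisson interval 20.2 to 83.7), with folds from 1.88 to 2.91. The single shared IL-4 region in the gene body reached within 1 kb of a gene end and had a fold of 2.45. Slc22a18, an organic cation transporter gene, held 9 (38.1 per 100 kb). Sema7a, a membrane-anchored semaphorin, held 8 (37.6). Slc24a1, the ion exchanger of rod photoreceptors, held 10 (37.4). Padi1, which converts arginine to citrulline in the epidermis, held 11 (35.7). These genes were chosen for their high rate, so their place above the median of 4.62 follows from the choice. The intervals do not take that choice into account. They overlapped each other, so the order of the genes is not resolved.

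The next 10 had rates from 35.2 to 30.8 per 100 kb. They were Mxra7, Pdgfa (a platelet-derived growth factor), Kctd14, Mall, Bpifb1 (a secreted protein of the airway lining), Akap1 (a kinase anchor at mitochondria), Rhcg (an ammonia transporter), Vwa2, Slc43a1 (an amino acid transporter) and Pou6f1 (a POU-domain transcription factor). Each of the leading 15 held 7 to 11 IL-4-alone regions, 0 to 4 shared and 0 to 4 untreated-alone regions. Their regions were mostly weak, with 0 to 3 strong ones in each gene, and the highest fold in any was 3.09, in Mxra7. Of the 15 genes with the most strong regions per 100 kb, among genes of 20 kb or more with at least 3, Kctd14, Mxra7 and Mall were also among these leading 15. When the IL-4 list was shortened to the length of the untreated list, 10 of the 15 still held at least 5 IL-4-alone regions and 6 stayed among the leading 15.

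In longer genes the leaders were better supported by number. Between 50 and 150 kb of interior they were Rhbdl3, a rhomboid-like membrane protein, with 15 regions (28.0 per 100 kb), Abcg1, which exports sterols from macrophages, with 15 (25.7), Cfap77, a cilium protein, with 24 (24.6), and Zfyve28 with 22 and Dpysl5 with 21 (24.5 each). Above 150 kb they were Nrg2, a ligand of ErbB receptors, with 42 (23.2), Antxr1, a collagen-binding receptor also used by anthrax toxin, with 44 (22.0), Cacna1b, the N-type calcium channel, with 33 (21.0), Adamts2, which trims procollagen, with 42 (20.6), and Fstl4 with 85 (20.0). Untreated-alone regions in these 10 genes ran from 0 to 5.72 per 100 kb. Abcg1 and Dpysl5 held none.

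**Figure D3:**
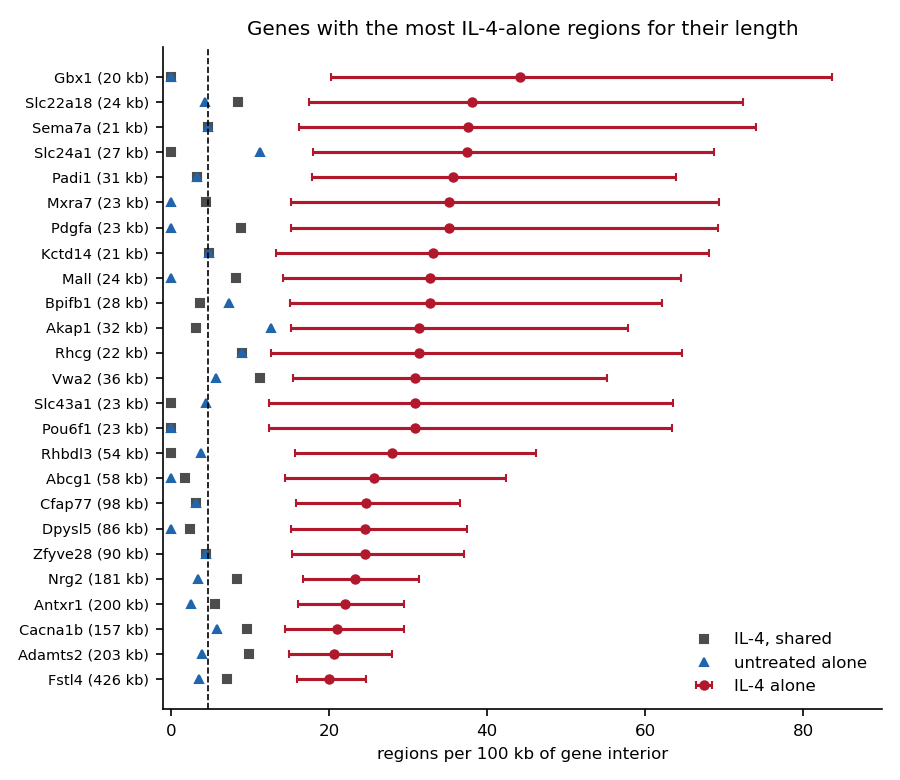
Regions per 100 kb of interior (x axis) in the 15 genes of highest IL-4-alone rate and the 5 leading genes each of 50 to 150 kb and above 150 kb of interior (y axis, interior length in parentheses). Red circles are IL-4-alone regions with exact 95% Poisson intervals for counting error, grey squares shared and blue triangles untreated-alone regions, and the dashed line is the median IL-4-alone rate of 4.62. The genes were chosen for a high rate, so all red points lie to the right of that line by construction. The intervals do not take that choice into account, and they narrow with gene length.

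By plain number the leaders were very long genes. Asic2, an acid-sensing ion channel, held 153 in 1083 kb, 14.1 per 100 kb, with 52 shared and 41 untreated-alone regions. Camta1 held 106, Cdh13 (T-cadherin) 105, Kalrn 101, Wwox 101, Thsd4 100, Sdk1 99, Dlgap2 98, Dpp6 90 and Ptprn2 87. Sdk1, Dlgap2 and Dpp6 are known for roles at synapses or in neurons. Thsd4 stood out for few untreated-alone regions, 6 against 23 shared, while Cdh13 held 95 and 112. Strong regions were counted separately, since they hold the better measured part. Arhgap26, a GTPase-activating protein, held the most of any gene, 21 of 60. Asic2 followed with 19, Frmd4a with 18, Sdk1 with 15 and Lpp, a focal adhesion protein, with 14 of 35. In Lpp 1 region was untreated-alone, and in Arid1b, a subunit of the BAF chromatin remodelling complex, 11 of 46 were strong and 0 were untreated-alone.

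Some genes held IL-4-alone regions and no untreated region at all in their interior. Of the 10580 genes with at least 1 IL-4-alone region, 2660 were of this kind (25.1%). Of the 3259 genes with 5 or more IL-4-alone regions, 110 were. Fam117a held 13 with folds from 1.75 to 2.46, none of them strong. Gpr107 held 13, of which 6 were strong, with a highest fold of 4.33. Gata4, a transcription factor of heart and gut development, held 12, Fbxw7, a subunit of a ubiquitin ligase, 11, and Slc47a2 11. Rnf216, a ubiquitin ligase, held 10, of which 7 were strong. In contrast, Sp140 held 0 IL-4-alone and 22 shared regions, and Sp110 0 and 20. These neighbouring genes overlap, and both belong to a family known for closely similar copies, so the counts of the pair are uncertain. Abi3bp, Cngb3 and Itgbl1 also held 0, with 9, 10 and 8 untreated-alone regions.

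The 10 IL-4-alone regions of highest fold lay in genes that include Toll-like and Fc receptors. The first, chr7:44826481-44827257, had a fold of 5.83 and lay in Nup62, a nuclear pore protein gene, and in the overlapping Il4i1b. The latter name refers to IL-4-induced 1, an enzyme family that oxidises amino acids. Its nearest untreated region was 8.13 kb away. The region in Tlr4, the receptor for bacterial endotoxin, chr4:66843267-66843608, had a fold of 4.98 and lay 2.97 kb from the nearest gene end. A second IL-4-alone region in Tlr4 had a fold of 2.19, and the end of the gene itself was marked in both libraries, at folds of 6.70 with IL-4 and 4.22 without. The region in Fcgr2b, the inhibitory Fc receptor for IgG, chr1:170967521-170968270, had a fold of 4.92. Fcgr2b held 2 more at 2.25 and 3.14, and a shared region at 4.62 with IL-4 and 2.15 without. The others lay in Zfp608 (5.81), Slc6a6, the taurine transporter (5.52), Sobp (5.28), Cdyl, a chromodomain protein (5.22), Enox1 (5.22), Fabp12 (5.10) and Plin3, a lipid droplet coat protein (4.86). Tied with Plin3 at 4.86 were regions in Usp6nl, Itga6 and Mgll, the lipase of monoacylglycerols. The region in Cdyl had an untreated region 0.165 kb away, and the one in Itga6 0.489 kb away. The other 8 of the leading 10 besides Cdyl and Zfp608 lay 2.56 to 8.13 kb from the nearest untreated region.

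Gene lists were described by their counts beside the same counts over all genes, and no test was made. Over all genes the median rate for genes of 20 kb or more was 4.62 per 100 kb, and 16.5% (16.2 to 16.8) of pairs of a region and a gene were strong. At least 1 IL-4-alone region lay in 57.7% of all genes with an interior and in 79.9% of those with 20 kb or more, the values beside which the number of genes holding one in each list stands. The order of the lists by rate was not their order by the share of strong regions. The highest median rates were those of lymphocyte markers (10.3 per 100 kb over 16 genes), lung epithelium (8.17 over 9) and alveolar macrophage identity (7.53 over 10). The lowest was that of neurons, 1.05 over 24 very long genes. The MAP kinase cascade stood at 5.47 over 18 genes. Macrophages in general (3.46 over 14), IL-4 receptor signalling (3.74 over 16) and the IL-4 response (3.2 over 8) stood below the 4.62 of all genes. These places depended on the length limit. Over genes of any interior length the median of all genes was 2.86, and alveolar macrophage identity stood below it at 1.14. Macrophages in general (3.3), IL-4 receptor signalling (3.55) and the IL-4 response (3.07) then stood above it, as did lymphocyte markers (10.6) and lung epithelium (6.57). The largest shares of strong regions were those of the MAP kinase cascade with 35 of 85 (41.2%, 30.6 to 52.4), macrophages in general with 24 of 63 (38.1%), the IL-4 response with 14 of 39 (35.9%) and IL-4 receptor signalling with 15 of 49 (30.6%). Lung epithelium stood at 19.3% (11 of 57), lymphocyte markers at 14.4%, markers of fibroblasts and endothelium at 14.8% and neuronal genes at 9.12%. Without the gene with the most strong regions in each of the 4 leading lists (Map4k4, Runx1, Cdh1, Stat5b), these shares were 38.5%, 34.0%, 32.3% and 23.3%. At a fold of 3 or more in place of the −log10 q limit they were 14.1%, 9.52%, 10.3% and 10.2%, against 3.19% over all genes and 0.877% over neuronal genes. Over all genes the strong share also went with gene length, from 19.7% at 20 to 50 kb of interior to 11.7% beyond 500 kb. Shared regions of the 4 leading lists were strong more often as well, so the pattern was not particular to IL-4-alone regions. Strong were 44 of 64 shared regions in the MAP kinase cascade and 49 of 59 in macrophages in general. In the IL-4 response they were 22 of 29, and in IL-4 receptor signalling 29 of 40. Over all genes they were 19466 of 41435, and over neuronal genes 158 of 577.

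**Figure D4:**
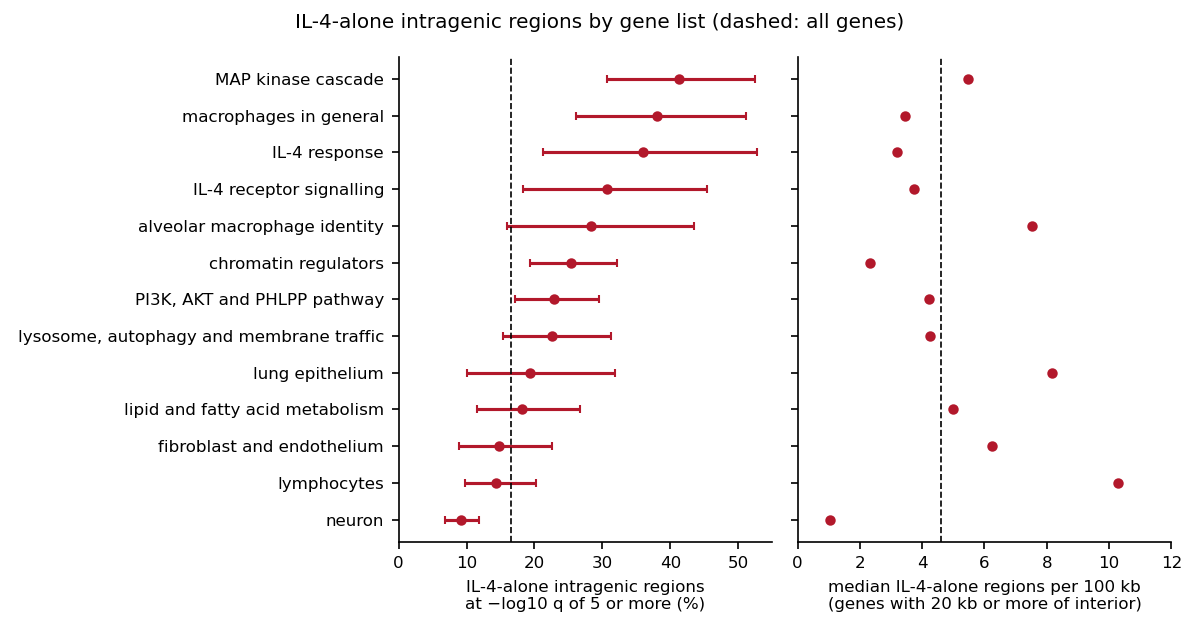
Left, percent of IL-4-alone intragenic regions with a −log10 q of at least 5 (x axis) in each of 13 gene lists (y axis), with exact 95% binomial intervals for counting error. Right, the median IL-4-alone rate per 100 kb over the genes of each list with 20 kb or more of interior. Dashed lines are the values over all genes, 16.5% and 4.62, and lists with the largest strong share, such as the MAP kinase cascade at 41.2%, are not those with the highest rate.

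Genes of macrophages held few untreated-alone regions, as did several other lists. Over the general macrophage list, 63 IL-4-alone and 59 shared regions stood against 4 untreated-alone ones, 0.261 per 100 kb where all genes had 2.41. IL-4 receptor signalling stood at 0.54, lysosome, autophagy and traffic genes at 0.694 and the MAP kinase cascade at 0.707. Lymphocyte markers (2.98), fibroblast and endothelium markers (3.23) and lipid genes (2.75) stood above all genes. Of the 52 untreated-alone regions of the lipid genes, 33 lay in the long gene Ppargc1a (659.6 kb of interior). The untreated-alone rate over all genes was 1.77 at 20 to 50 kb of interior and 2.93 beyond 500 kb. Its median over genes of 20 kb or more was 0.557. Runx1, a transcription factor of blood cells, held 13 IL-4-alone regions with folds from 1.84 to 4.13, of which 7 were strong, 13 shared and 0 untreated-alone. Lyn, a Src-family kinase, held 10 with 3 strong, and Mertk, a receptor for the uptake of dead cells, 8 with 2 strong. Syk, the kinase downstream of Fc receptors, held 4 and Zeb2, a transcription factor that keeps macrophage identity, 2. Itgax, the CD11c integrin, held 2, the stronger at a fold of 3.01. Csf1r, the receptor for the growth factor of macrophages, held 0 and 2 shared regions.

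In the alveolar macrophage list, 46 IL-4-alone regions lay in 12 of 24 genes with an interior (exact interval of the share 29.1 to 70.9%, against 57.7% over all such genes), with 32 shared and 5 untreated-alone regions. Abcg1 held 15 of the 46. The 15 had folds from 1.89 to 3.98 with a median of 2.16, and they ran along the gene from 1.28 to 52.8 kb from its end of lower coordinate. The 2 strongest stood at 31.2 kb (fold 3.98) and at 52.8 kb (3.68), and the next at 16.3 kb (2.65). The single untreated region inside Abcg1 had a fold of 2.35 and overlapped the shared IL-4 region at 2.68. Pparg, the nuclear receptor that alveolar macrophages need and that governs lipid genes, held 6 at folds of 2.91, 3.20, 2.37, 2.91, 2.43 and 2.25. Its 3 shared regions had folds of 3.08 to 3.62 with IL-4 in the IL-4 list, and the 4 untreated regions of the gene interior had folds of 1.81 to 2.41 in theirs. Krt79 and Cidec, a lipid droplet protein, held 2 each in short interiors of 8.99 and 9.12 kb.

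**Figure D5:**
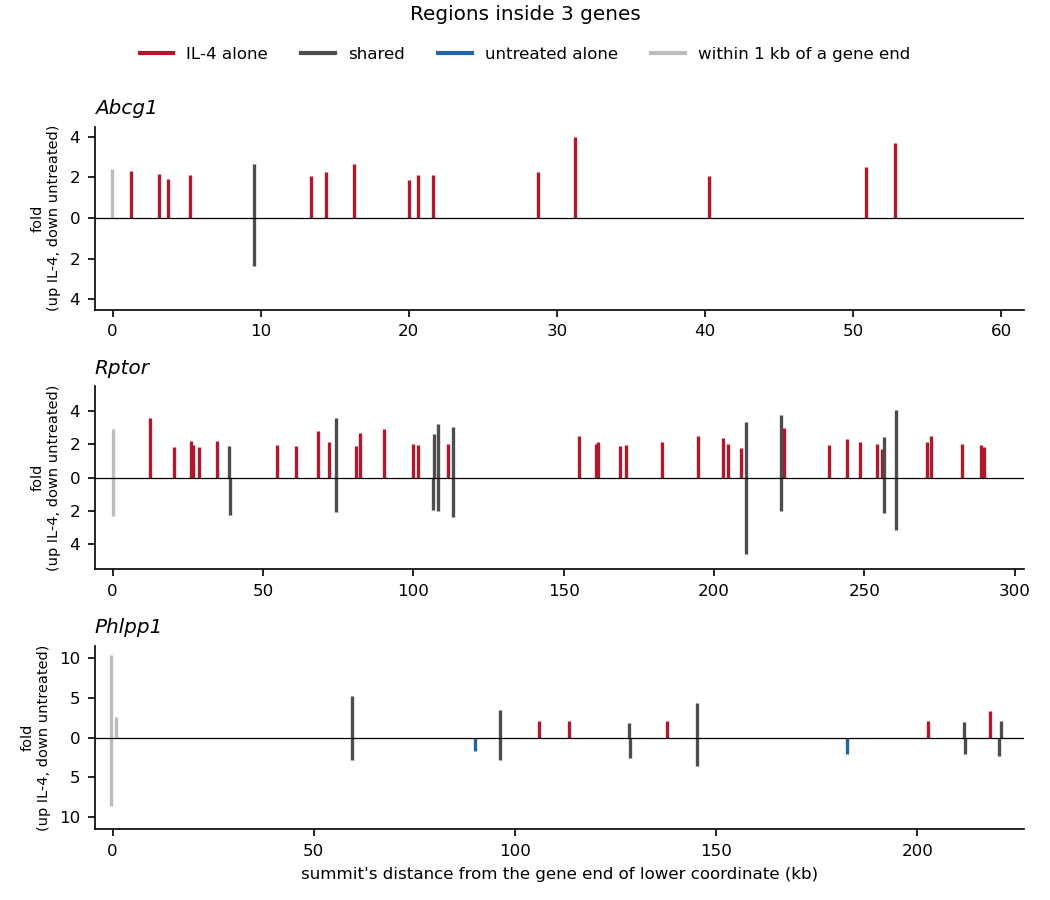
Regions inside Abcg1, Rptor and Phlpp1 by distance of the summit from the gene end of lower coordinate in kb (x axis) and fold over the background of the library (y axis, IL-4 upwards and untreated downwards), 1 library each. IL-4-alone regions are red, shared ones dark grey, untreated-alone ones blue and those within 1 kb of a gene end light grey. Abcg1 shows 15 red lines and 1 shared pair, Rptor 37 red lines and no blue, and Phlpp1 5 red lines, 6 shared and 2 blue.

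Of the genes that carry the IL-4 signal, 16 of 21 with an interior held at least 1 IL-4-alone region (76.2%, 52.8 to 91.8). Of the 21, 16 had 20 kb or more of interior, where the share over all genes was 79.9%, against 57.7% over genes of any length. Jak1, a kinase bound to the IL-4 receptor, held 12 with folds from 1.74 to 3.02, beside 8 shared. Irs2, the adaptor that links the receptor to PI3K, held 5 at 1.94 to 3.08, beside 2 shared. Stat5b held 6, of which 5 were strong, at 1.96 to 3.44, of which 1 lay 0.237 kb from an untreated region and the others 9.98 to 43.6 kb. Stat3 held 2, both strong. Il4ra, the receptor's alpha chain, held 1 at a fold of 1.72, and Stat6, its main transcription factor, 0 in 16 kb of interior. None of Jak1, Irs2 and Stat5b held an untreated-alone region. In their interiors of 111, 22.2 and 76.3 kb the median untreated-alone rate of 0.557 per 100 kb would give fewer than 1 each. Stat5b held 5 of the 15 strong regions of this list.

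Among genes known to respond to IL-4 in macrophages, 15 of 25 held at least 1 (60.0%, 38.7 to 78.9), against 57.7% over all genes. Mgl2, a lectin of alternatively activated macrophages, held 3 at folds of 1.66 to 1.96, 24.0 to 25.6 kb from any untreated region. Cd209d held 2, the stronger at 2.16, and Hbegf, an EGF-family ligand, 3, the strongest at 2.61. Cdh1, the adhesion protein E-cadherin, held 8 of which 4 were strong, and Pdcd1lg2, the PD-L2 ligand, 2, both strong, beside 9 shared. Mrc1, the mannose receptor, held 2, at 2.25 and 3.08. Arg1, arginase 1, and Irf4, a transcription factor of alternative activation, held 0 in interiors of 10.3 and 15.7 kb, where the median rate would give fewer than 1. The exact upper limits of their rates were 35.9 and 23.4 per 100 kb. Fn1 held 0 IL-4-alone and 3 untreated-alone regions in 65.8 kb, and Chil3, Ccl22 and Myc held 0 and 1 each. Cish, Klf4, Ccl17 and Ccl24 also held 0 IL-4-alone regions.

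Phlpp1 itself held 5 IL-4-alone, 6 shared and 2 untreated-alone regions in 220.4 kb, a rate of 2.27 per 100 kb (0.737 to 5.29). The folds of the 5 were 2.02, 2.02, 2.08, 2.02 and 3.32, and the last lay 218 kb from the gene start. The region at its start was listed in both libraries at folds of 10.3 with IL-4 and 8.65 without. Phlpp2, its close relative, held 2 at 2.84 and 2.79, 4.05 and 49.0 kb from its start, both strong, and 1 untreated-alone region at 2.41. Over the whole PI3K, AKT and PHLPP list, 23 of 27 genes held 192 regions, 44 strong (22.9%), with 133 shared and 47 untreated-alone.

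Rptor, the subunit that recruits substrates to the mTOR complex, held 37 of these in 295 kb, 8 of them strong, at folds of 1.75 to 3.62, with 9 shared and 0 untreated-alone. Its IL-4-alone regions lay 0.266 to 48.2 kb from the nearest untreated region. Prkcb and Prkca, protein kinases C whose dephosphorylation PHLPP is known for, held 38 and 27, with 5 and 9 untreated-alone. Pik3cd, the PI3K catalytic subunit of white blood cells, held 5 with 3 strong, and Pik3r1, a regulatory subunit, 9 with 4 strong. The highest fold of the list, 4.16, was that of a region in Tsc1, an inhibitor of mTOR signalling. Gsk3b and Foxo3, targets of AKT, held 7 each with 3 and 2 strong. Akt1, a kinase that PHLPP1 acts on, held 0 and 2 shared.

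In the MAP kinase cascade 18 of 24 genes held 85 regions, 64 shared and 12 untreated-alone. Strong ones were spread over the tiers of the cascade. Upstream kinases Map4k4 (5 of 7), Map3k5 (4 of 11), Map3k1 (3 of 7) and Map4k3 (3 of 7) held 15 of the 35. Map2k1 held 3 of 5 and Mapk14, which is p38 alpha, 2 of 5. Ksr1, a scaffold of the cascade, held 3 of 14.

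Chromatin regulators held 193 in 19 of 24 genes, 49 strong (25.4%). Besides Arid1b, Hdac4 held 35 with 9 strong, Chd7 22 with 6, Dnmt3a 8 with 4 and Crebbp 3, all strong. Other long genes of the list held none, namely Ncor1 in 138 kb of interior, Nsd1 in 107, Setd2 in 84.1 and Kmt2a in 76.0 kb. The median rate of the 23 genes with 20 kb or more was 2.31 per 100 kb, below the 4.62 over all genes.

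Lists of cell supply and storage lay nearer the values over all genes. Genes of lysosomes, autophagy and membrane traffic held 115 in 20 of 24, 26 strong (22.6%), led by Atg7 with 7 strong of 14. Lamp1, a lysosomal membrane protein, held 2, both strong, in 14.2 kb. Lipid and fatty acid genes held 110 in 21 of 24, 20 strong (18.2%), with Ppara at 10 and Hadha, an enzyme of fatty acid oxidation, at 5. Among markers of other cells, Pax5 of B cells held 34 with 3 strong and 7 untreated-alone, Bach2 28 with 5 strong, and the neuronal gene Rbfox3 69 with 8 strong and 14 untreated-alone. In the lung epithelium list Cdh1 held 8 with 4 strong, Grhl2 19 with 2 and Rtkn2 5 with 2, while the surfactant genes Sftpa1 and Sftpd held 2 and 3, none strong. Neuronal genes as a list held 570 IL-4-alone, 577 shared and 774 untreated-alone regions, so here the untreated-alone class was the largest.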

How the data were processed

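Regions were analysed as deposited, 1 list for each of the 2 CUT&Tag libraries (untreated, and IL-4 at 20 ng/ml for 4 h). MACS2 2.2.7.1, Bowtie 0.12.8 and DiffBind, and mm10 as the build, stand without roles per the submitters' processing notes. The sources used here do not give settings, filters or a control library. In the deposited lists the fold is the authors' ratio of summit pileup to the background of the same library, not scaled between libraries. The authors' −log10 p and −log10 q are against that background. The deposited score was the −log10 p times 10 without decimals, and the last deposited column is another value, the offset of the summit in bp. The lowest −log10 p was 2.00 in the untreated and 2.03 in the IL-4 list.

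Overlap meant at least 1 shared bp. Genes, starts and miRNAs were those of RefSeq (GRCm38.p6, on which mm10 is based), with 20665 autosomal protein-coding genes. The interior of a gene is its body without the 1 kb next to any protein-coding gene end. The gene table gives no strand, which was taken from the start windows for 7081 of the 8976 genes with 20 kb or more of interior. All 352 entries of 14 gene lists matched by symbol, and Itgax, Cdh1, Chil3 and Ep300 stand in 2 lists. Pileup and background were recovered from fold and p, and pileups were whole within 0.05 for 100% of regions. Intervals of shares (exact Clopper-Pearson) and of rates (exact Poisson) are at 95% and cover counting error only. With 1 library per group no test was made.

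The members and the lists were chosen with earlier results of these data known. Named genes are 11 set ones, the 15 of highest rate (20 kb or more of interior, at least 5 regions), the 10 of highest count, the 5 of highest rate in each of 3 length classes, the 10 regions of highest fold, up to 3 genes per list, and 5 genes without such a region. Some genes and 1 list of this rule are not reported here. Other genes were chosen after their values were seen. Alternatives changed the overlap, the −log10 q limit, the list length, the distance to gene ends and the gene set. The interval arithmetic was tested on simulated data. Python 3.11.15, numpy 2.4.6, pandas 2.3.3, scipy 1.17.1 and matplotlib 3.10.9 were used.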

Additional observations from a re-analysis of the deposited data

Results flagged for a closer look

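The sex chromosomes were outside the rule. The same criteria found 123 intragenic IL-4-alone regions there, 121 on X and 2 on Y, a rate of 0.27 per 100 kb over 46.0 Mb of gene interior, against 5.80 per 100 kb on the autosomes. The other classes were sparse there too. Shared regions of the IL-4 list stood at 0.196 per 100 kb (89 regions) against 4.33 on the autosomes, and untreated-alone regions at 0.0935 (43 regions) against 2.41. The IL-4 list held 1049 regions of any kind on X and Y and the untreated list 879. The 123 regions were singled out because they lie on chromosomes that the report does not otherwise use. The cause of the low rates was not tested.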

How the results depend on the processing

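The 54668 regions, 10580 genes, 5.80 regions per 100 kb, 61.6% with an untreated region within 5 kb and 16.6% strong regions depended on the processing as follows. When an untreated region within 500 bp counted as shared, the last 3 were 5.25, 57.6% and 17.1%. When sharing needed 50% of the shorter region, the rate was 6.05 and 63.2% had an untreated region within 5 kb. At a −log10 q of at least 5, there were 9062 regions in 4948 genes, a rate of 0.957, 54.5% near an untreated region and, by construction, 100% strong. With the IL-4 list as long as the untreated list, there were 35057 regions, a rate of 3.72, 60.9% and 25.8%. At 5 kb from gene ends the rate was 5.55, with 60.4% and 16.2%. In genes that overlap no other gene the rate was 5.87. The other values for these results moved by less than their interval or by less than 1.5 times. The ratio of IL-4-alone to untreated-alone regions in sparse and dense neighbourhoods, 1.24 and 5.30, had alternatives added after seeing the data. In sparse neighbourhoods it was 1.71 for genes of 50 to 100 kb, 2.08 at a fold of 2.5 or more and 0.623 with equal list lengths. In dense ones it was 56.7 at a fold of 2.5 or more, 2.62 with equal list lengths and 4.80 with a window of 2 Mb. The cause of these shifts was not tested. Rates of named genes moved beyond their interval for 65 of 92 at a −log10 q of 5, for 32 of 92 with equal list lengths, for 8 of 87 at 5 kb and for 2 of 92 with the 500 bp rule. With 1 library per group no library could be left out. No paired analysis was possible because each group held 1 library. Motifs at summits, planned, were not run, since they need the genome sequence. A fold under 2 was held by 37.9% of IL-4-alone and 38.1% of untreated-alone regions, and the part of depth was not tested.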
